A study of Mus musculus with 8 samples.

Results

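Glutathione, thioredoxin and related antioxidant genes were compared between control and LKB1-deficient mouse CD8+ T cells. The set held every gene of the deposited tables whose symbol begins with Gst, Mgst, Gpx, Prdx, Txn or Ephx, together with Gclc, Gclm, Gsr, Gss, Sod1, Sod2, Cat, Nqo1, Hmox1, Hmox2, Srxn1, Nfe2l2 and Keap1. This rule took 76 of 24421 genes. Naive CD8+ T cells, the lymphocytes that kill infected and tumour cells, had been stimulated for 48 hours with antibodies against CD3 and CD28 fixed to the plate, in both groups. The labels give 4 libraries of LKB1 wild type cells, called control here, and 4 of LKB1-deficient cells. They do not state the strain, the age, the allele or what drove the loss of LKB1, a kinase encoded by Stk11 that activates AMPK and related kinases. The labels also do not say that the replicates came from separate animals, so each p-value covers no more than the spread among these libraries, which may be technical.

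Glutathione is a small peptide with a reactive thiol that keeps the inside of a cell reduced. It is made by glutamate-cysteine ligase and glutathione synthetase, is spent by glutathione peroxidases on peroxides and by glutathione transferases on electrophiles, and is returned to its reduced form by glutathione reductase with electrons from NADPH. Thioredoxin, with thioredoxin reductase and the peroxiredoxins, forms a parallel system. The transcription factor NRF2, encoded by Nfe2l2, induces many of these genes through antioxidant response elements and is held at low level by KEAP1. In T cells, activation raises the production of reactive oxygen species, and glutathione synthesis is known to be needed for their growth after activation.

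The promoters of 4 genes are printed because these genes moved furthest or stand for the opposite directions described below. Each window runs from 250 bases before to 50 bases after a RefSeq gene start, 5′ to 3′ on the gene's strand, in the assembly GRCm38.p6. Capitals mark a match to TGACNNNGC, the core of the antioxidant response element, or to TGACTCA, the AP-1 site, on either strand. The windows are those of Txnrd1 (thioredoxin reductase, chr10:82858956-82859255, plus strand), Srxn1 (sulfiredoxin, chr2:152105274-152105573, plus strand), Ephx1 (microsomal epoxide hydrolase, chr1:181017520-181017819, minus strand) and Mgst2 (a microsomal glutathione transferase, chr3:51660929-51661228, plus strand).
Txnrd1: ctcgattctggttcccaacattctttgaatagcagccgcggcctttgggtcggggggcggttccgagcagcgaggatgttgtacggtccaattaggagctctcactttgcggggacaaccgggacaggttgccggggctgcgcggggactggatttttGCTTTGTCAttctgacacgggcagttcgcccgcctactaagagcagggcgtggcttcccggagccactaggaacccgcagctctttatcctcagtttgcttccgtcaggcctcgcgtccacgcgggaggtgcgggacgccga
Srxn1: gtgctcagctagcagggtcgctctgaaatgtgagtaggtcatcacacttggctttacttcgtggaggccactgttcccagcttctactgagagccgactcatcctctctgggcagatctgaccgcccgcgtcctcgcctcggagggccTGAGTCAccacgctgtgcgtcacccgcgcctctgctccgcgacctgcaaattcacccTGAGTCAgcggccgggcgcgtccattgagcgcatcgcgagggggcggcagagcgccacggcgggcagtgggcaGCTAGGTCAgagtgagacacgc
Ephx1: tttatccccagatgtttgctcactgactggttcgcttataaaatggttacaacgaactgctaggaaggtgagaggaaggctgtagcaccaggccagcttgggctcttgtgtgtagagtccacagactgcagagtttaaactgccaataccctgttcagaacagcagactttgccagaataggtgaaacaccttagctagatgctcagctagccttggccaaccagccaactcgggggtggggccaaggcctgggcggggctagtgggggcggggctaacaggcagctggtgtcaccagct
Mgst2: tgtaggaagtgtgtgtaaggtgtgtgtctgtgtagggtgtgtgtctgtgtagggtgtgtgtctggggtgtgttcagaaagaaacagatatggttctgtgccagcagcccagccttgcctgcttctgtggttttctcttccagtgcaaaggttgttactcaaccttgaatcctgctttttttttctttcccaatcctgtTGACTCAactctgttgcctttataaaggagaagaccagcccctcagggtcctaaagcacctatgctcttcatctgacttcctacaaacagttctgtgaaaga
The Txnrd1 window held 1 match to the antioxidant element core, beginning at base -92 from the start, and the other Txnrd1 windows of the table held none. The Srxn1 window held 1 match to the antioxidant element core, at base 28, and 2 AP-1 matches. The Mgst2 window held 1 AP-1 match, at base -52, and the Ephx1 window held neither motif. The gene spans of Txnrd1, Ephx1 and Mgst2 given below begin upstream of the printed windows, so these windows may not cover every start. Of the 76 genes, 65 had a window in the table. The antioxidant element core was found in the windows of 13 of these 65 genes (20%), against 12.4% of all 32851 windows and 14% of all 27025 genes. It was found in 2 of 3 matched genes that were higher in LKB1-deficient cells, Txnrd1 and Srxn1, in 0 of 15 that were lower, and in 6 of 24 that passed neither way. The AP-1 site was found in 7 of the 65 genes (10.8%), against 5.2% of windows and 5.95% of genes. The motifs overlap where TGACTCA is followed by GC. A match is a description of the letters and not a measured binding site, and these counts were not tested.

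Library depth, purity and the targeted gene were as follows. Gene counts ran from 7090252 to 12211930 in the control and from 3454388 to 6356125 in the LKB1-deficient libraries, so 1 count was worth 0.0757 to 0.13 CPM (a count scaled to library size) in the first group and 0.157 to 0.291 CPM in the second. Stk11 had 101, 67.8, 82.0 and 77.0 CPM in control replicates 1 to 4 and 76.5, 70.8, 107 and 64.4 CPM in LKB1-deficient replicates 1 to 4, which overlap. Its adjusted p was 0.911. The reads come from the 3′ end and the deleted part of Stk11 is not stated, so this level does not check the labels. LKB1-deficient replicates 2 and 4 stood apart on the leading principal component, which carried 56.4% of the variance, at 51.7 and 54.4, against 12.5 and 6.79 for replicates 1 and 3 and -37.9 to -21.7 for the controls. The summed CPM of 10 CD8 T cell markers was 5015 to 5336 in the controls and 3383 to 4540 in the LKB1-deficient libraries. Of these markers Cd3d, Cd3g and Cd8a were lower by the test, and Cd28 did not pass the filter on low counts. The others were not called, with negative log2 fold changes for Cd8b1 (-0.48), Lck (-0.32) and Cd5 (-0.28). Those of Cd3e (0.32), Cd2 (0.24) and Thy1 (0.17) were positive, so the markers did not move together. The summed mast cell and basophil markers came to 5.66 to 7.42 CPM in the controls and to 7.60, 25.9, 9.29 and 22.4 CPM in LKB1-deficient replicates 1 to 4. Sums were at most 12.9 CPM for B cell, 11.3 for macrophage, 9.08 for CD4 T cell, 5.83 for dendritic cell and 2.62 for NK cell markers in any library. The NK cell sums ran from 0.0812 to 0.52 CPM in the controls and from 0.787 to 2.62 CPM in the LKB1-deficient libraries, without overlap. By edgeR's test Gata2, of the mast cell and basophil list, was higher (adjusted p = 0.0422). Cd79b, of the B cell list, was lower (adjusted p = 0.0164). Xcr1, Pax5, Klra4 and Klra8 were at 0 in all 8 libraries. The part of these differences in the results was not tested. In such bulk libraries fewer cells with a transcript and less transcript per cell cannot be told apart.

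More of the measured antioxidant genes fell than rose in LKB1-deficient cells. Those that rose were Gsr, Txnrd1, Txnrd3 and Srxn1, and 8 of the 17 that fell were glutathione transferases. Of the 76 genes, 49 passed the filter on low counts. By edgeR's quasi-likelihood test with Benjamini-Hochberg adjustment over all 10396 tested genes, 4 were higher and 17 lower at an adjusted p under 0.05. That is 42.9% called, against 22.5% of all tested genes. The share called higher was 8.16%, against 12.4% of all genes, and the share called lower was 34.7%, against 10.1% of all genes. One of the lower genes, Gpx7, passed the filter only through the controls, and without it 16 of 48 genes (33.3%) were lower. The median log2 fold change, LKB1-deficient against control, was -0.22 over the 49 genes and 0.00 over all tested genes, and 34 of 49 (69.4%) had a negative value against 49.7% of all genes. Scaling by total counts moved the median of all genes to -0.16 and that of the 49 genes to -0.38. That was the lowest median of the antioxidant genes among the alternatives. The one nearest to no change was -0.12, without both LKB1-deficient replicates 2 and 4, where the median of all genes was 0.00. The 4 control and 4 LKB1-deficient values did not overlap for 23 of the 49 genes (46.9%, against 26.1% of all genes). Of these, 5 were higher (against 12.0% of all genes) and 18 lower (against 14.1%).

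**Figure D1:**
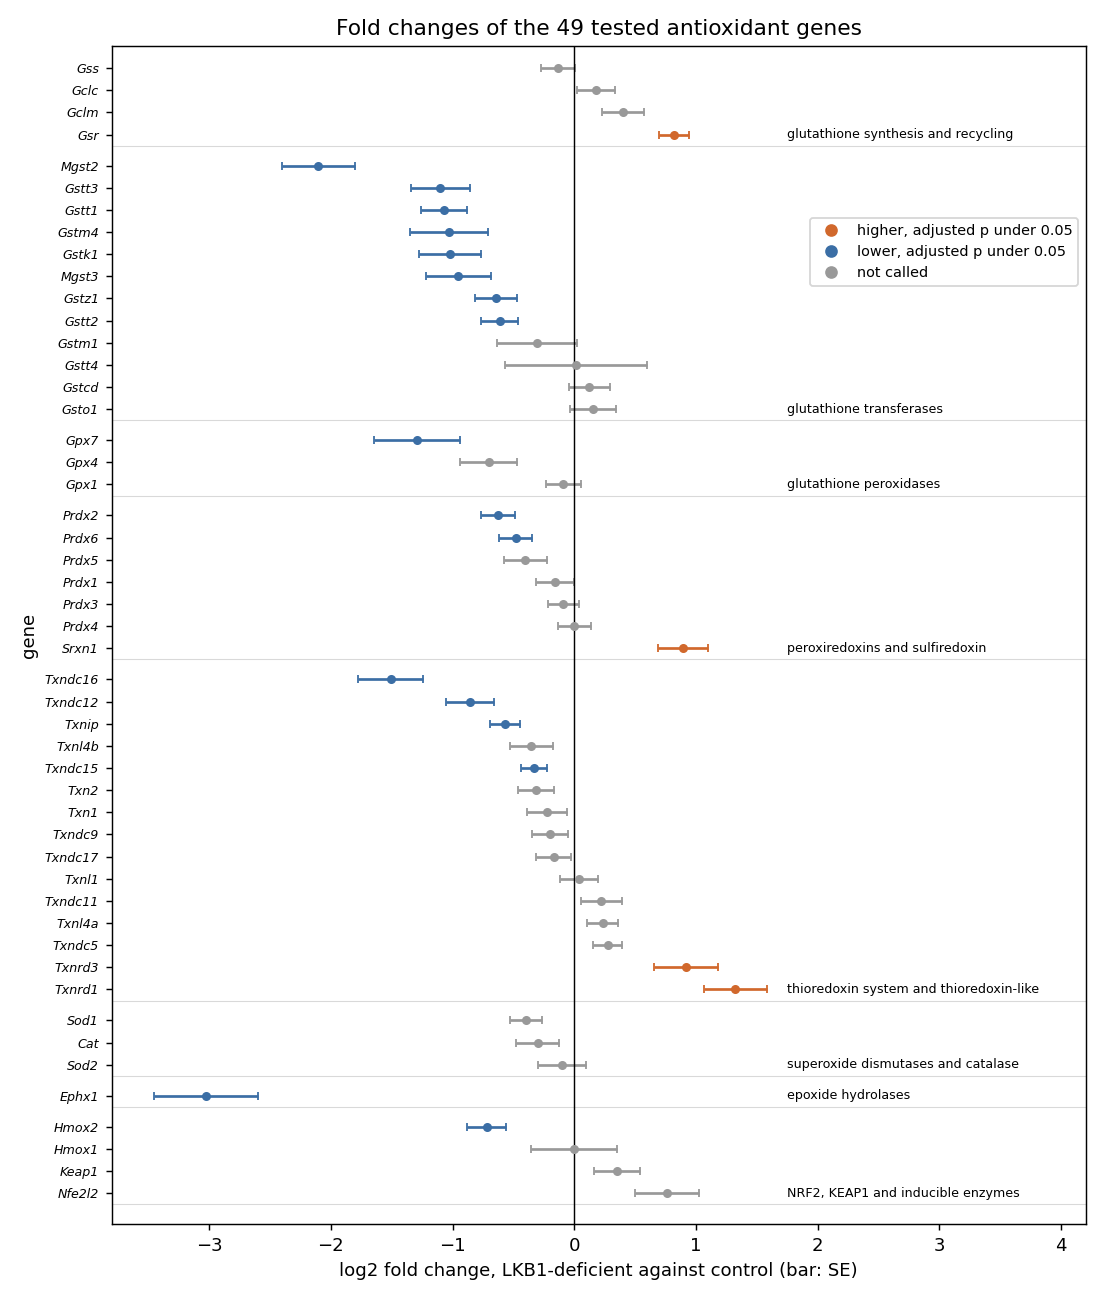
Log2 fold change of each of the 49 tested antioxidant genes (x axis, LKB1-deficient against control, bars are SE), grouped by family. Gsr, Srxn1, Txnrd1 and Txnrd3 lie to the right in orange, 17 genes lie to the left in blue led by Ephx1 at -3.03 and Mgst2 at -2.10, and 28 genes in grey were not called.

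The number of genes called lower rested on some libraries more than on others, and so did that over all genes. Leaving out control replicate 3, or replicate 2 or 4 of the LKB1-deficient cells, each left 9 lower genes, and the last of these left 2 higher genes. Over all genes the same 3 fits left 451, 476 and 441 lower, against 1051 with all 8 libraries. With both of the LKB1-deficient replicates 2 and 4 removed, the genes called were Gsr and Txnrd1 (higher) and Ephx1, Mgst2 and Txndc16 (lower). Over all genes that fit left 162 higher and 98 lower. The sample identifiers begin with ET for replicate 1 and with EU for replicates 2 to 4 of both groups. Within the EU libraries, 5 antioxidant genes were higher and 14 lower, beside 1172 higher and 666 lower over all genes. ET holds 1 library of each group, which allows no test. None of the 21 called genes changed sign under any of the 21 alternatives in which it was tested. The stricter threshold and the test against a 1.5-fold change keep the log2 fold changes as reported, so no sign could change in them.

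**Figure D2:**
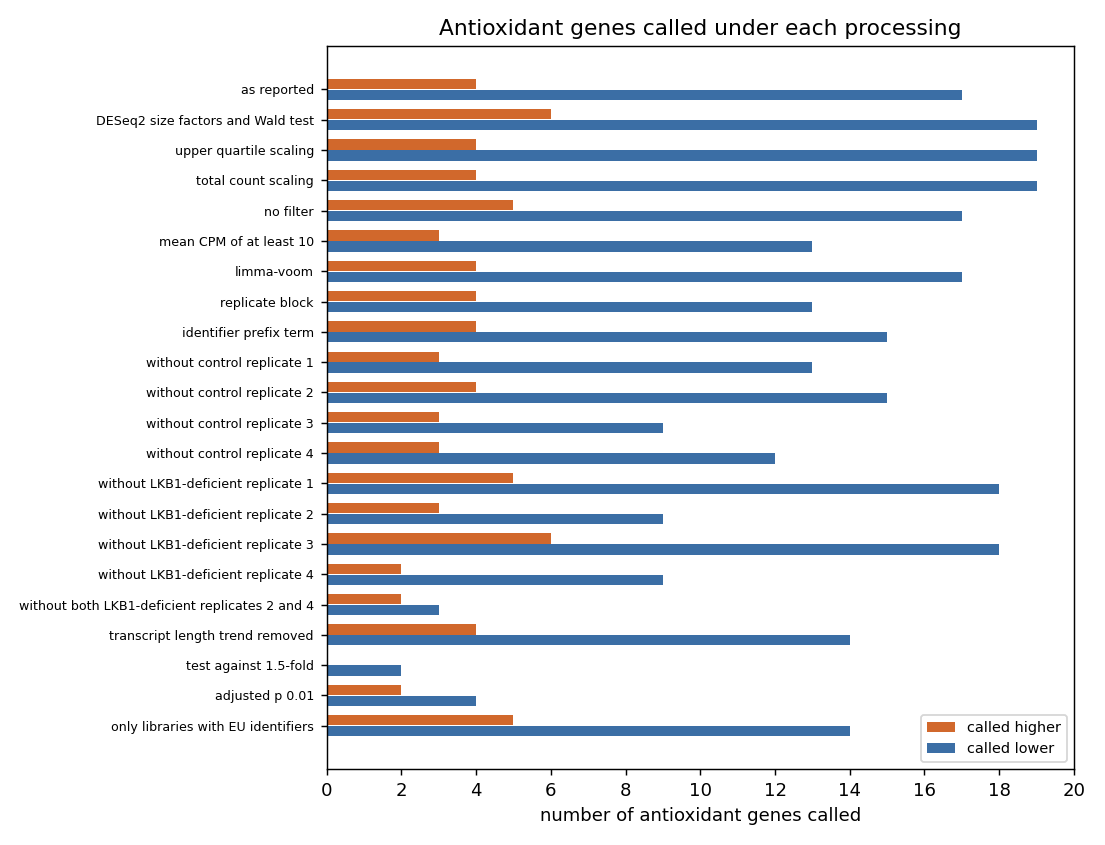
Number of antioxidant genes called higher (orange) or lower (blue) in LKB1-deficient cells (x axis) as reported and under each alternative processing (y axis). The bars stand at 4 higher and 17 lower as reported, 6 and 19 by DESeq2, 2 and 3 without LKB1-deficient replicates 2 and 4, and 0 and 2 in the test against a 1.5-fold change.

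Glutathione reductase rose, while the enzymes of glutathione synthesis did not pass the test with all 8 libraries. Gsr, which returns oxidised glutathione to its thiol form (chr8:33652523-33698163, plus strand, GRCm38), had 49.8, 55.1, 55.8 and 55.9 CPM in control replicates 1 to 4. In LKB1-deficient replicates 1 to 4 it had 100.4, 98.2, 81.1 and 103 CPM. Every LKB1-deficient library was above every control library, and the means were 54.1 ± 2.92 and 95.7 ± 9.93 CPM (SD, n = 4 here and below). Gsr was 1.77-fold higher, a log2 fold change of 0.82 ± 0.12 (SE, adjusted p = 0.00385). Without LKB1-deficient replicates 2 and 4 the log2 fold change was 0.75 (adjusted p = 0.0441).

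Gclc, the catalytic subunit of glutamate-cysteine ligase and the rate-limiting step of glutathione synthesis, had 104, 78.6, 75.5 and 76.9 CPM in the controls and 91.2, 103, 77.0 and 109 CPM in the LKB1-deficient libraries. Control replicate 1 was as high as the higher LKB1-deficient libraries, and the groups overlapped (log2 fold change 0.18 ± 0.16, adjusted p = 0.422). Gclm, its modifier subunit, had 103, 96.3, 101 and 117 CPM against 129, 174, 97.4 and 150 CPM. Replicate 3 of the LKB1-deficient cells lay among the controls, and the other 3 lay above them (log2 fold change 0.40 ± 0.17, adjusted p = 0.117). Without that library Gclm passed the threshold (log2 fold change 0.53, adjusted p = 0.0291). Gss, glutathione synthetase, differed by less than its spread, with a log2 fold change of -0.13 (adjusted p = 0.507).

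The thioredoxin reductases and sulfiredoxin rose. Txnrd1, the cytosolic selenoenzyme that reduces thioredoxin (chr10:82833951-82897712, plus strand), had 114, 126, 97.6 and 116 CPM in the controls and 176, 418, 203 and 335 CPM in the LKB1-deficient libraries. All 4 LKB1-deficient libraries lay above the controls, and replicates 2 and 4 were the highest. The means of 113 ± 11.6 and 283 ± 114 CPM gave a 2.5-fold rise, with a log2 fold change of 1.32 ± 0.26 (adjusted p = 0.0099). Without replicates 2 and 4 the log2 fold change of Txnrd1 was 0.75 (adjusted p = 0.0466).

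Srxn1, sulfiredoxin, repairs peroxiredoxins that peroxide has overoxidised (chr2:152105516-152111376, plus strand). It had 3.77, 3.33, 4.54 and 4.55 CPM in the controls and 6.75, 7.58, 6.61 and 9.17 CPM in the LKB1-deficient libraries, with no overlap. The rise was 1.85-fold, a log2 fold change of 0.89 ± 0.21 (adjusted p = 0.0162). Without LKB1-deficient replicate 4 the adjusted p of Srxn1 was 0.053.

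Txnrd3, the reductase that acts on both thioredoxin and glutathione, had 7.91, 10.3, 6.36 and 7.53 CPM against 9.57, 14.3, 13.5 and 23.5 CPM. LKB1-deficient replicate 1 lay below control replicate 2, so the groups overlapped, and replicate 4 was far above the rest. Its log2 fold change was 0.92 ± 0.26 (adjusted p = 0.0349), and the call did not survive removal of control replicate 1, 3 or 4, or of replicate 2 or 4 of the LKB1-deficient group, with an adjusted p of up to 0.0962. The mitochondrial reductase Txnrd2 was at 0 in all libraries.

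The regulators themselves did not pass the test. Nfe2l2, which encodes NRF2 (chr2:75675513-75704641, minus strand), had 46.6, 55.7, 45.4 and 44.9 CPM in the controls and 50.6, 122, 55.7 and 99.5 CPM in the LKB1-deficient libraries. LKB1-deficient replicates 2 and 4, the same libraries that were highest for Txnrd1, were high, and replicates 1 and 3 lay within or at the edge of the control values. The log2 fold change was 0.76 ± 0.26 (adjusted p = 0.0588). The adjusted p was 0.0293 by DESeq2, 0.0246 without LKB1-deficient replicate 1, 0.0329 without replicate 3 and 0.0498 within the EU libraries, while without both replicates 2 and 4 the log2 fold change was 0.15 (adjusted p = 0.58). Keap1, the repressor of NRF2, had 113, 166, 165 and 123 CPM against 139, 208, 162 and 214 CPM, with a log2 fold change of 0.35 ± 0.19 (adjusted p = 0.194). Its groups overlapped.

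**Figure D3:**
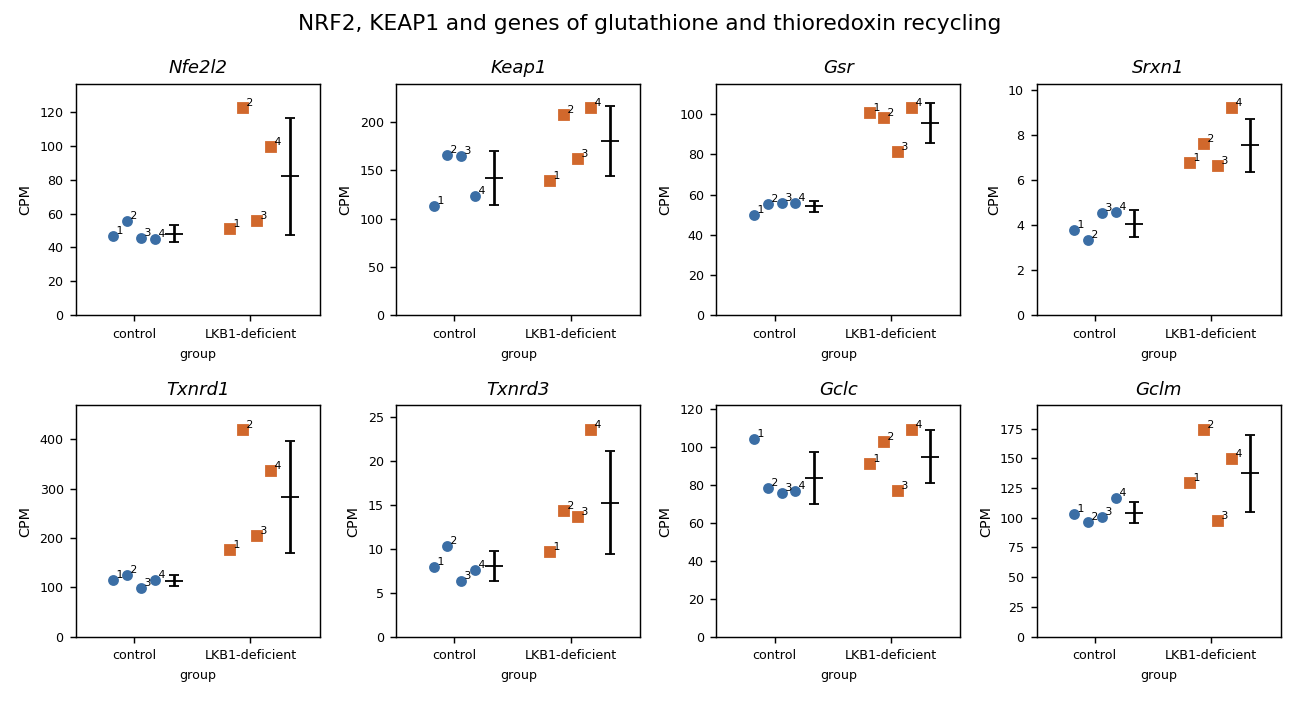
CPM of Nfe2l2, Keap1, Gsr, Srxn1, Txnrd1, Txnrd3, Gclc and Gclm (y axes, from 0) in each control (blue circles) and LKB1-deficient (orange squares) library, numbered by replicate, with the group mean and SD in black. Gsr, Srxn1 and Txnrd1 show no overlap, and for Nfe2l2 and Txnrd1 LKB1-deficient replicates 2 and 4 lie above replicates 1 and 3.

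The glutathione transferases were the family with the most genes called lower. Of 25 genes, 12 were tested, 8 fell and 0 rose (0 at an unadjusted p under 0.05 and 0 by DESeq2), against 10.1% lower and 12.4% higher among all tested genes, with a median log2 fold change of -0.80. Mgst2, a membrane-bound transferase of the endoplasmic reticulum that can also conjugate glutathione to leukotriene A (chr3:51660360-51682677, plus strand), had 30.2, 18.4, 21.9 and 37.5 CPM in the controls. In the LKB1-deficient libraries it had 8.44, 3.21, 7.08 and 5.93 CPM. The lowest control lay well above the highest LKB1-deficient library. Mgst2 was 4.3-fold lower, with means of 27.0 ± 8.61 and 6.16 ± 2.22 CPM (log2 fold change -2.10 ± 0.30, adjusted p = 0.00341), and it passed the threshold under all 21 alternatives.

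Mgst3, a related membrane transferase, had 6.74, 7.39, 7.42 and 9.35 CPM against 4.78, 3.21, 5.35 and 2.16 CPM. Its groups did not overlap (log2 fold change -0.95 ± 0.27, adjusted p = 0.0323). Removing control replicate 2, 3 or 4, or replicate 2 or 4 of the LKB1-deficient group, ended the call, with an adjusted p of up to 0.0829.

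The theta class transferases lie side by side on chromosome 10, and 3 of the 4 fell, against 10.1% of all tested genes called lower. Gstt1 (chr10:75783813-75798584, minus strand) had 15.8, 14.8, 15.9 and 16.9 CPM in the controls and 8.72, 5.54, 9.44 and 5.93 CPM in the LKB1-deficient libraries. The controls were close together and all above the other group, and Gstt1 was 2.1-fold lower (log2 fold change -1.07 ± 0.19, adjusted p = 0.00684). Gstt3 (chr10:75774115-75781414, minus strand) had 9.88, 7.31, 7.26 and 6.37 CPM against 3.66, 2.33, 4.56 and 3.50 CPM. It was 2.14-fold lower, again without overlap (log2 fold change -1.10 ± 0.25, adjusted p = 0.0144). Gstt2 (chr10:75831114-75837424, minus strand) had 84.9, 77.1, 90.7 and 86 CPM against 70.1, 45.5, 58.4 and 47.7 CPM. It was 1.53-fold lower (log2 fold change -0.61 ± 0.15, adjusted p = 0.0212), and its call ended on removal of control replicate 3 or of replicate 2 or 4 of the LKB1-deficient group, with an adjusted p of up to 0.0644. Gstt4, which lies between Gstt1 and Gstt2, was not called. It had means of 1.37 and 1.52 CPM from 82 counts in all (log2 fold change 0.01 ± 0.58), too few to compare it with its neighbours.

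Of the other classes, Gstk1, the kappa class enzyme of mitochondria and peroxisomes, had 6.56, 5.69, 8.17 and 8.18 CPM in the controls and 4.50, 2.62, 4.25 and 2.43 CPM in the LKB1-deficient libraries. Its groups did not overlap (log2 fold change -1.02 ± 0.26, adjusted p = 0.0215). Gstm4, a mu class enzyme (chr3:108040408-108044894, minus strand), had 5.66, 4.79, 7.49 and 7.40 CPM against 4.78, 2.91, 3.31 and 1.35 CPM. The lowest control and the highest LKB1-deficient library were nearly level (log2 fold change -1.03 ± 0.32, adjusted p = 0.0436). Gstz1, the zeta class isomerase that also acts in the breakdown of tyrosine, had 21.4, 20.3, 26.0 and 19.6 CPM against 16.0, 11.9, 16.7 and 11.1 CPM, without overlap (log2 fold change -0.64 ± 0.17, adjusted p = 0.0279). These 3 calls were less stable. Gstk1 was lost on removal of control replicate 3 or 4, or of replicate 2 or 4 of the LKB1-deficient group (adjusted p of up to 0.0647). Gstz1 was lost on removal of control replicate 3 or of the same LKB1-deficient libraries (up to 0.0844). Gstm4 was lost when any library but control replicate 2 or LKB1-deficient replicate 1 was left out (up to 0.113). Gstm1, Gsto1 and Gstcd were tested and not called.

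Ephx1, microsomal epoxide hydrolase, which opens epoxides to diols (chr1:180976210-181020904, minus strand), showed the largest fold change of the 49 genes. It had 54.3, 41.8, 38.7 and 23.9 CPM in the controls and 5.63, 2.04, 8.81 and 1.62 CPM in the LKB1-deficient libraries. Every LKB1-deficient library lay below every control, and replicates 2 and 4 were the lowest. Means of 39.7 ± 12.5 and 4.52 ± 3.38 CPM gave an 8.15-fold lower level (log2 fold change -3.03 ± 0.43, adjusted p = 0.00341), and Ephx1 passed the threshold under all 21 alternatives. Without LKB1-deficient replicates 2 and 4 its log2 fold change was -2.41 (adjusted p = 0.0359), which is a fold over 1.5 times smaller. The soluble hydrolase Ephx2 and its relatives Ephx3 and Ephx4 did not pass the filter.

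**Figure D4:**
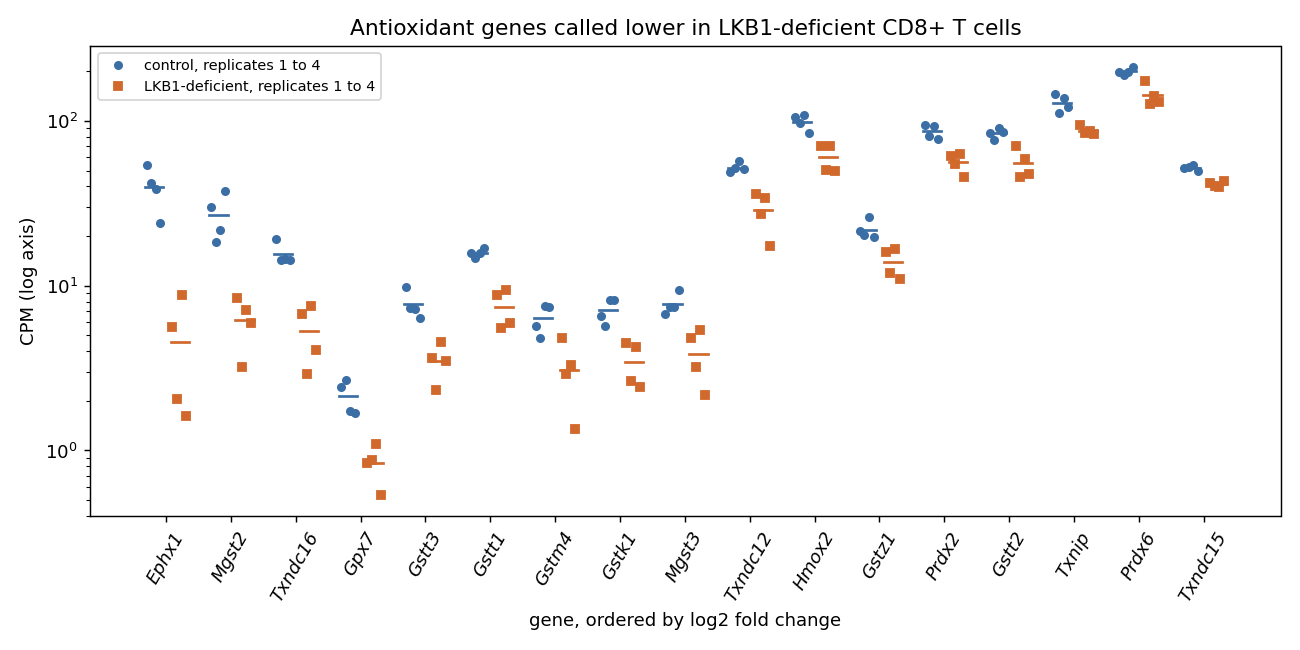
CPM (y axis, log scale) of the 17 antioxidant genes called lower, in each control (blue circles) and LKB1-deficient (orange squares) library, with group means as lines, ordered by log2 fold change along the x axis. No gene overlaps between groups, and the gap is widest for Ephx1 and Mgst2 and narrowest for Gstm4.

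Among the thioredoxins, their reductases, the inhibitor Txnip and the thioredoxin-like proteins, 15 of 18 genes were tested. Of these 15, 2 rose (the reductases above), a share near the 12.4% of all tested genes called higher. The 4 that fell (Txnip, Txndc12, Txndc15 and Txndc16) stand beside 10.1% of all tested genes called lower. Txn1, cytosolic thioredoxin, had 1445, 1459.7, 1839 and 1809.9 CPM in the controls and 1665, 1179.6, 1436 and 1337 CPM in the LKB1-deficient libraries. These values overlap (log2 fold change -0.22 ± 0.17, adjusted p = 0.344). Mitochondrial thioredoxin, Txn2, had a log2 fold change of -0.31 (adjusted p = 0.143), and passed without LKB1-deficient replicate 1 (adjusted p = 0.0434).

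Txnip, which binds and inhibits thioredoxin and restrains glucose uptake, and whose protein AMPK is known to phosphorylate, had 146, 112, 138 and 121 CPM against 94.2, 84.5, 86.6 and 83.0 CPM. All LKB1-deficient libraries were below the controls and close together. Txnip was 1.48-fold lower (log2 fold change -0.57 ± 0.13, adjusted p = 0.0141), and its call held when any single library was left out but not without both LKB1-deficient replicates 2 and 4 (adjusted p = 0.117).

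Txndc16, a protein of the endoplasmic reticulum with a thioredoxin domain, had 19.3, 14.3, 14.5 and 14.3 CPM in the controls and 6.75, 2.91, 7.55 and 4.04 CPM in the LKB1-deficient libraries. It was 2.85-fold lower without overlap (log2 fold change -1.51 ± 0.26, adjusted p = 0.00666), and at -1.11 (adjusted p = 0.046) it still passed without LKB1-deficient replicates 2 and 4. Txndc12, a small thioredoxin-like enzyme of the same compartment, had 48.9, 51.8, 56.8 and 51.1 CPM against 36.0, 27.4, 33.8 and 17.5 CPM. It was 1.81-fold lower (log2 fold change -0.86 ± 0.20, adjusted p = 0.016), and its adjusted p was 0.0593 without both replicates. Txndc15 had the smallest fall of the called genes, from 51.9 ± 1.98 to 41.4 ± 1.52 CPM (a log2 fold change of -0.33 ± 0.11, adjusted p = 0.0481). Its call was lost when any 1 of the 8 libraries was left out, with an adjusted p of up to 0.128. Txndc5, Txndc9, Txndc11, Txndc17, Txnl1, Txnl4a and Txnl4b were tested and not called, although every LKB1-deficient library was above every control for Txndc5 and Txnl4a.

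Most glutathione peroxidase genes did not pass the filter on low counts. Of 9 such genes 3 were tested, and the 1 called lower was Gpx7, which only the controls carried past the filter. Over all tested genes the share called lower was 10.1%. Gpx1, the cytosolic selenoenzyme that removes hydrogen peroxide, had 326, 269, 314 and 371 CPM in the controls and 331, 289.9, 267 and 313 CPM in the LKB1-deficient libraries. The groups overlapped (log2 fold change -0.09 ± 0.14, adjusted p = 0.665). Gpx4, which reduces lipid peroxides in membranes and guards against ferroptosis, had 51.5, 47.2, 77.1 and 68.3 CPM against 49, 23.9, 43.9 and 32.6 CPM. LKB1-deficient replicate 1 reached the lower controls and the other 3 lay below them (log2 fold change -0.70 ± 0.24, adjusted p = 0.0547), and Gpx4 passed the threshold under 9 of the 21 alternatives. Of the 50-base stretches in the last 500 bases of Gpx4 transcripts, 88.9% also occur in copies such as Gpx4-ps2, so its count depends on how shared reads were treated, which is not given in the sources used here.

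Gpx7, a peroxidase of the endoplasmic reticulum, had 2.43, 2.68, 1.74 and 1.69 CPM in the controls and 0.844, 0.874, 1.10 and 0.539 CPM in the LKB1-deficient libraries. It passed the filter only through the controls, in which all 4 libraries reached its cutoff of 1.49 CPM while no LKB1-deficient library did, so a difference was needed for it to be tested at all. Its log2 fold change of -1.29 ± 0.35 (adjusted p = 0.0292) is given as a description, and its call ended on removal of control replicate 1, 2 or 3, or of replicate 2 or 4 of the LKB1-deficient group (adjusted p of up to 0.0843).

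The peroxiredoxins, which reduce peroxides with electrons from thioredoxin, fell in 2 of 6 cases, against 10.1% of all tested genes called lower. Prdx2, a cytosolic peroxiredoxin also abundant in red cells, had 94.8, 81.3, 92.5 and 77.9 CPM in the controls and 61.0, 54.5, 63.1 and 45.8 CPM in the LKB1-deficient libraries. The groups did not overlap and Prdx2 was 1.54-fold lower (log2 fold change -0.62 ± 0.14, adjusted p = 0.0138). Rnaseh2a overlaps Prdx2 on the other strand and fell to a similar extent (log2 fold change -0.65, adjusted p = 0.0122). The libraries keep the strand, but whether the counting used it is not given in the sources used here, so reads of this pair may not be separated. The haemoglobin genes Hba-a1, Hba-a2, Hbb-bs and Hbb-bt and the erythroid gene Alas2 were at 0 in all libraries. Reads shared between genes may have been dropped. This was not examined for the haemoglobin genes, so their zeros do not measure red cell content. The summed erythroid markers came to 5.98 to 6.66 CPM in the controls and 1.46 to 5.82 CPM in the LKB1-deficient libraries.

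Prdx6, the peroxiredoxin that takes its electrons from glutathione and also acts on phospholipids, had 199, 189.7, 198 and 211 CPM against 175, 126, 141 and 130.2 CPM. It was 1.39-fold lower without overlap (log2 fold change -0.48 ± 0.14, adjusted p = 0.033), and its call ended on removal of control replicate 1, 3 or 4, or of replicate 2 or 4 of the LKB1-deficient group (adjusted p of up to 0.0928). Prdx1, Prdx3 (mitochondrial), Prdx4 (endoplasmic reticulum) and Prdx5 did not pass the test. Their adjusted p-values were 0.467, 0.64, 0.997 and 0.122, and Prdx5 passed without LKB1-deficient replicate 3 (adjusted p = 0.0316). Prdx1 was at 443, 416, 515 and 551 CPM in the controls and at 511, 382, 401 and 428 CPM in the LKB1-deficient libraries, which overlap.

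The superoxide dismutases and catalase were tested and none passed by edgeR's test (0 higher and 1 lower at an unadjusted p under 0.05, and 0 higher and 1 lower by DESeq2). Among all tested genes 12.4% were called higher and 10.1% lower by edgeR. Sod1, the cytosolic copper and zinc enzyme, had 494, 462, 525 and 562 CPM in the controls and 405, 380.3, 415 and 350.4 CPM in the LKB1-deficient libraries. All 4 LKB1-deficient libraries lay below the controls (log2 fold change -0.40 ± 0.13, adjusted p = 0.0547), and Sod1 passed under 7 of the 21 alternatives, DESeq2 among them (adjusted p = 0.00331). Sod2, the mitochondrial manganese enzyme, had 128, 132, 176 and 198 CPM against 188, 112, 143 and 146 CPM (adjusted p = 0.732). Cat, which splits hydrogen peroxide in peroxisomes, had a log2 fold change of -0.30 (adjusted p = 0.229).

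Of the haem oxygenases, which break haem down to biliverdin, Hmox2 fell and Hmox1 did not pass the test. Hmox2, the constitutive form, had 105, 97.6, 109 and 84.8 CPM in the controls and 70.1, 50.1, 70.4 and 49.9 CPM in the LKB1-deficient libraries. It was 1.65-fold lower without overlap (log2 fold change -0.72 ± 0.16, adjusted p = 0.0138), and its call was lost without both LKB1-deficient replicates 2 and 4 (adjusted p = 0.111). Hmox1, the form that NRF2 induces, was at 0.988, 1.79, 1.66 and 1.30 CPM in the controls and at 1.69, 0.874, 1.73 and 1.35 CPM in the LKB1-deficient libraries. A few counts per library carry these values, and no difference was detectable at this depth (adjusted p = 0.999).

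Calls that no single left-out library removed were those of Ephx1, Mgst2, Txndc16, Gstt1, Gstt3, Txndc12, Hmox2, Prdx2, Txnip, Gsr and Txnrd1. Without both LKB1-deficient replicates 2 and 4, the adjusted p was 0.0502 for Gstt1, 0.121 for Gstt3 and 0.11 for Prdx2. Of the 27 genes that did not pass the filter, 13 were at 0 in all 8 libraries (Gpx2, Gpx5, Gpx6, Gsta1, Gstm3, Gstm6, Gstm7, Gstp1, Gstp2, Prdx6b, Txndc2, Txndc8 and Txnrd2). The last 500 bases of Gstp1, Gstp2 and Gsta1 transcripts are mostly shared with close relatives (75.2%, 88.9% and 90% of 50-base stretches), so reads from them may have been dropped. The other 14 had few counts. Nqo1, a quinone reductase that NRF2 induces, had 0.629, 0.406, 0.984 and 2.21 CPM in the controls and 1.13, 2.04, 0.787 and 3.23 CPM in the LKB1-deficient libraries, which overlap.

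Genes that work with these systems were taken from 8 further lists, of which 98 genes were tested, 4 higher and 14 lower. That is 18.4% called, below the 22.5% of all tested genes, and the median log2 fold change was -0.16. The shares in the lists below stand beside 12.4% of all tested genes called higher and 10.1% called lower, and lists of this size with 1 or 2 genes called lie near those shares. Among the partners of KEAP1 and NRF2, 3 of 10 tested genes rose, against 12.4% of all genes, and 0 fell (0 at an unadjusted p under 0.05 and 0 by DESeq2). Mafg and Mafk, the small MAF proteins that pair with NRF2 on DNA, rose from 68.7 ± 11.2 to 139 ± 43.9 CPM (a log2 fold change of 1.01, adjusted p = 0.014) and from 10.7 ± 1.59 to 16.5 ± 3.01 CPM (0.62, adjusted p = 0.0329). Nfe2l1, the NRF2 relative that controls proteasome genes, rose from 74.2 ± 7.23 to 114 ± 15.4 CPM (0.62, adjusted p = 0.0136). Without LKB1-deficient replicates 2 and 4 none of these passed, with adjusted p-values of 0.114 for Mafg, 0.247 for Mafk and 0.102 for Nfe2l1. Mafk was also lost on removal of control replicate 1, 2 or 3 alone, or of replicate 2 or 4 of the LKB1-deficient group alone. Bach1, Bach2, Cul3 and Sqstm1 were not called.

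Of 15 tested further NRF2 targets, 1 rose and 1 fell. Abcc4, an exporter of conjugates, rose from 12.5 ± 2.73 to 19.4 ± 1.85 CPM (a log2 fold change of 0.63, adjusted p = 0.031), and Ugdh, which makes the substrate for glucuronidation, fell from 57.6 ± 6.9 to 31.6 ± 7.58 CPM (-0.86, adjusted p = 0.0111). The call of Abcc4 ended without 6 of the 8 libraries in turn, all but control replicate 1 and LKB1-deficient replicate 3. Slc7a11, the cystine carrier, did not pass the filter, and G6pdx was not called.

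The list of other detoxification enzymes had 5 of 13 tested genes lower, against 10.1% of all genes, and 0 higher (1 at an unadjusted p under 0.05 and 1 by DESeq2). Tpmt, which methylates thiopurines, fell from 9.75 ± 2.34 to 3.46 ± 0.725 CPM (a log2 fold change of -1.47, adjusted p = 0.00604). Nqo2, a quinone reductase related to Nqo1, fell from 8.05 ± 0.695 to 4.07 ± 0.584 CPM (-0.97, adjusted p = 0.00991), and Pon2, a paraoxonase, from 23.6 ± 1.02 to 13.2 ± 3.04 CPM (-0.82, adjusted p = 0.0118). Among the glutaredoxins and other thiol-disulfide enzymes, 3 of 16 fell and 0 rose (3 at an unadjusted p under 0.05 and 0 by DESeq2). Glrx, a glutaredoxin, fell from 18.2 ± 4.81 to 7.9 ± 3.4 CPM (-1.20, adjusted p = 0.0226), and Msrb2, a mitochondrial methionine sulfoxide reductase, from 6.81 ± 0.315 to 3.33 ± 1.38 CPM (-0.98, adjusted p = 0.0296). The calls of Glrx and Msrb2 were each lost in most fits with 1 library left out, with adjusted p-values of up to 0.0586 and 0.0709.

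Of 17 tested genes of cysteine supply and glutathione turnover, 1 fell and 0 rose (2 at an unadjusted p under 0.05 and 1 by DESeq2). It was Lancl1, from 29.3 ± 1.03 to 16.7 ± 3.96 CPM (a log2 fold change of -0.80, adjusted p = 0.0116). Of 16 tested genes that supply NADPH, 2 fell and 0 rose (1 at an unadjusted p under 0.05 and 0 by DESeq2). These were Idh2, mitochondrial isocitrate dehydrogenase, from 46.5 ± 7.37 to 29.3 ± 6.17 CPM (-0.66, adjusted p = 0.0279), and Pgls of the pentose phosphate pathway, from 151 ± 18 to 108 ± 18.8 CPM (-0.48, adjusted p = 0.0485). Both calls ended on removal of control replicate 3 or 4, or of replicate 2 or 4 of the LKB1-deficient group, and that of Pgls also on removal of control replicate 1 or 2. The lists of selenoprotein synthesis (10 tested) and of the NADPH oxidase (7 tested) each had 1 gene lower, Pstk and BC017643, and 0 higher (1 and 0 at an unadjusted p under 0.05, and 1 and 0 by DESeq2). The calls of Pstk and BC017643 ended on removal of control replicate 3 or 4, or of replicate 2 or 4 of the LKB1-deficient group (adjusted p of up to 0.0866 and 0.0904), and that of BC017643 also on removal of control replicate 1. With LKB1-deficient replicates 2 and 4 both removed, none of the related genes named here passed, with adjusted p-values from 0.0593 for Tpmt to 0.319 for Pgls.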

How the data were processed

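The authors deposited a table of raw counts by gene symbol for each of the 8 libraries (4 control, 4 LKB1-deficient). Per the labels' protocols the cDNA was primed with barcoded oligo-dT and the libraries keep the strand and carry 3′ ends. Per the submitters' processing notes reads were aligned with STAR to mm10. For the counting program and its annotation the entry is: not given in the sources used here. No molecular identifiers are stated. The 5 lines that name no gene were left out (counts outside genes 12.1% to 17.5%, ambiguous 0.382% to 0.552%, and alignments to several places 2.92 to 3.50 per gene count in control and 2.21 to 2.65 in LKB1-deficient libraries). Libraries of a group differed by 10.9 to 46.2 in chi-square per degree of freedom, so none was a duplicate.

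Counts were tested in R 4.3.3 with edgeR 4.0.16 (filterByExpr with minimum count 10 and total 15, TMM scaling, robust quasi-likelihood test, two-sided, Benjamini-Hochberg over all tested genes, threshold 0.05). The filter asks for 1.49 CPM in at least 4 libraries. CPM values use TMM-scaled library sizes, and each SE is approximate, the size of the log2 fold change over the root of F. Alternatives were DESeq2 1.42.0, voom in limma 3.58.1, other scalings and filters, a replicate block, a term for the identifier letters, left-out libraries, a transcript length trend removed, a stricter threshold of 0.01 and a 1.5-fold null. The EU libraries alone were added after seeing the data.

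The genes and lists were chosen with earlier results of these data known. Named were all called antioxidant genes, the central enzymes and regulators that did not pass, and up to 3 called genes per direction of each related list. Positions are from GENCODE vM21 on GRCm38 (mm10), and all 76 genes had one. Promoters are from RefSeq, GRCm38.p6.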

Additional observations from a re-analysis of the deposited data

Results flagged for a closer look

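In 4 of the 76 groups of 4 libraries examined, 1 library lay far from the other 3 by Dixon's test, which chance alone does in about 1 in 20 groups. All 4 were control libraries. Gsr was 49.8 CPM in control replicate 1 against 55.1 to 55.9 CPM in the others. Txndc16 was 19.3 CPM in control replicate 1 against 14.3 to 14.5 CPM in the others. Gclc was 104 CPM in control replicate 1, with the others at 75.5 to 78.6 CPM. Nfe2l2 was 55.7 CPM in control replicate 2, with the others at 44.9 to 46.6 CPM. Control replicate 1 is the control library whose identifier begins with ET.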

How the results depend on the processing

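Sign and side of the threshold were compared over 21 alternatives. Of the 17 antioxidant genes called lower, 2 (Ephx1 and Mgst2) passed under all of them. No called antioxidant gene changed sign in a fit that tested it, but the stricter threshold and the 1.5-fold null could not change a sign. Counts below are higher and lower. With both LKB1-deficient replicates 2 and 4 left out they were 2 and 3 for the antioxidant genes, 162 and 98 for all genes and 0 and 1 for the related genes. A test against a 1.5-fold change gave 0 and 2, 116 and 61, and 0 and 1. An adjusted p of 0.01 gave 2 and 4, 248 and 189, and 0 and 2. With total count scaling all genes split into 829 and 1576 (1286 and 1051 as reported, 1023 and 1446 with upper quartile scaling) and 2 related genes were higher, and DESeq2 gave 7 related genes higher. Within the EU libraries 666 genes were lower. Leaving out 1 library at a time gave 2 to 6 antioxidant genes higher and 9 to 18 lower, 560 to 1472 of all genes higher and 441 to 1353 lower, and 2 to 6 related genes higher and 5 to 18 lower. The cause was not tested.

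Log2 fold changes that changed sign were all of genes that were not called. They were Prdx4 at 0.0105 and Hmox1 at 0.00463 by DESeq2, and Hmox1 at 0.0593 with voom and 0.00219 with the identifier term. Without both LKB1-deficient replicates 2 and 4 they were Gss 0.0321, Prdx3 0.0335, Prdx4 0.12, Sod2 0.0719, Hmox1 0.25 and Stk11 0.18. With the length trend removed they were Gpx1 0.22, Prdx3 0.14, Prdx4 0.31, Txn1 0.0895 and Hmox1 0.19, and within the EU libraries Stk11 was 0.10. With 1 library left out, Prdx4 ran from -0.0624 to 0.0804, Sod2 from -0.238 to 0.0213, Hmox1 from -0.155 to 0.148 and Stk11 from -0.224 to 0.0791.

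The replicate numbers were not taken as pairs. Deviations of same-numbered libraries correlated at -0.25, 0.29, 0.30 and -0.09 for numbers 1 to 4, and not every library correlated best with its own number. With the replicate block, 4 antioxidant genes were higher and 13 lower, with 12 of the 17 lower calls shared, and all genes split into 1075 and 827. The lower depth of the LKB1-deficient libraries limits low genes such as Hmox1, Nqo1 and Gpx7.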

Other observations

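Genes next to the theta class transferases on chromosome 10 were looked at after the values of the transferases had been seen. Ddt, D-dopachrome tautomerase, which lies directly beside Gstt3 (chr10:75771230-75773414, minus strand), fell from 228 ± 24.0 to 172 ± 15.6 CPM (a log2 fold change of -0.41, edgeR adjusted p = 0.0493). Its relative Mif, beyond Gstt2, had a log2 fold change of -0.42 (adjusted p = 0.0594), and Cabin1, on the far side of Ddt, had 0.50 (adjusted p = 0.0911). Smarcb1 and Chchd10, further along, were not called.

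Ephx2, soluble epoxide hydrolase, did not pass the filter and was singled out after its values were seen. It had 0.27, 0.406, 0.454 and 0.65 CPM in the controls and 0.844, 3.5, 1.26 and 1.89 CPM in the LKB1-deficient libraries, from 49 counts in all. The groups did not overlap, but their nearest values were 3 counts in LKB1-deficient replicate 1 and 5 counts in control replicate 4. Without the filter on low counts its log2 fold change was 1.99 ± 0.53 (SE, edgeR adjusted p = 0.0239). Ephx2 was picked for these values, so they are given as a description. It was the only one of the 14 untested antioxidant genes with counts that passed the threshold in that fit.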
